A study of Mus musculus with 2 samples.

Results

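Gja1, Gja4, Gja5 and Gjc1 encode the connexins of the blood vessel wall and of heart muscle (Cx43, Cx37, Cx40 and Cx45), and they are 4 of the 31053 genes counted in these data. They were taken by symbol, and their own values were not used to sort the cells in which they are described. The study profiled live cells of whole mouse hearts at postnatal day 1 (P1) and day 7 (P7) by droplet single cell RNA-seq of transcript 3′ ends. Each age is a single library from 3 hearts of 1 litter, pooled, digested with collagenase II for 20 min at P1 and 45 min at P7, cleared of red cells and sorted with 7-AAD, a dye that enters dead cells. The hearts were intact, and no genotype or strain is given for these mice. With 1 library per age no test of the ages is possible, so every interval here (95%, exact) covers counting error only.

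Connexins are membrane proteins that assemble in sixes into half-channels, and half-channels of neighbouring cells dock into gap junctions that pass ions and small metabolites. Heart muscle uses them to carry the action potential from cell to cell, while in vessels they couple endothelial cells along the wall and smooth muscle cells around it. Cx37 and Cx40 are classic proteins of arterial endothelium, Cx40 and Cx45 also serve the conduction system, Cx43 is the main connexin of ventricular muscle, and Cx45 is needed in smooth muscle and early vessels.

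After barcodes with 200 to 8000 genes and at most 20% mitochondrial UMIs were kept, 4991 cells remained at P1 (median 10875 UMIs) and 8511 at P7 (median 10104), and 18 barcodes occurred in both libraries. Xist had 57336 UMIs at P1 and 12 at P7, and a set of Y-linked genes had 2 at P1 and 18039 at P7, so that age, sex and digestion time cannot be told apart. A cell entered a class with at least 1 UMI of each gating gene, and 69.3% of P1 and 79.0% of P7 cells fell in at least 1 of the 7 vascular, stromal and epicardial classes. The gates were Cdh5 with Sema3g or Hey1 for arterial (475 cells at P1 and 1000 at P7), Cdh5 with Aplnr for capillary (965 and 2673) and Cdh5 with Npr3 for endocardial cells (359 and 119). Further gates were Pdgfra for fibroblasts (1599 and 2865), Myh11 for smooth muscle (275 and 673), Kcnj8 for pericytes (627 and 917) and Upk3b for epicardium (76 and 43). Cdh5 with Prox1 marked lymphatic endothelium (94 and 97), while macrophages (87 and 124) and lymphocytes (56 and 423) were set beside the vascular classes for comparison. Whether these immune cells express connexins of their own was not tested. The gates overlap: 201 arterial cells at P1 and 488 at P7 also carried Aplnr, and 44.0% and 26.5% of pericytes also carried Pdgfra. Set against all cells, 4 of 4 markers were past 2-fold in the smooth muscle, pericyte, capillary and epicardial gates at both ages, 3 of 5 and 4 of 5 in the arterial gate, 3 of 4 and 4 of 4 in the endocardial gate and 3 of 4 in the lymphatic gate. In the Pdgfra gate 0 of 4 fibroblast markers passed 2-fold (1.69- to 1.98-fold). This gate held 48853054 of the 97432007 UMIs kept at P7, so no gene could pass 2-fold there. At P1 it held 25674906 of 59026295 UMIs, which left little room above 2-fold. The check thus cannot decide the identity of these cells. They are called Pdgfra cells here after the gating gene, and fibroblasts only in the plots. No doublet caller was used. A second, single-gate version of each class left out cells that also passed a gate of another lineage, with the arterial, capillary and endocardial gates counted as 1 lineage. All 5 lung genes searched (Foxf1, Hoxa5, Tbx4, Sftpc and Ager) had UMIs in each of the 7 classes at P1, summing to 27.7 to 112 CPM, against 1.14 to 26.5 CPM at P7.

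Gja4 and Gja5 were the members that differed most between arterial and capillary cells, and the 250 bases before their RefSeq starts are shown for that reason. Capitals mark exact matches, on either strand, to GGAAG (a core bound by ETS factors), ACAAT (SOX factors) and GGGCGG (SP factors), which do not overlap here. TGGGAA, the core of the Notch effector RBPJ, was also searched. RefSeq (GRCm38.p6) gave a promoter for 3 of the 4 members. Gja4 is at chr4:127314040-127314289 on the minus strand and Gja5 at chr3:97032152-97032401 on the plus strand.
Gja4: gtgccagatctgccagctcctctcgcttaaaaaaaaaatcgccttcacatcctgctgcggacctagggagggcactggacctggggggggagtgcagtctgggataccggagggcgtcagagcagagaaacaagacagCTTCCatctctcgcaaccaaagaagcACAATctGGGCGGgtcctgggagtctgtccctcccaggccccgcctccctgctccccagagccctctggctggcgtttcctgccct
Gja5: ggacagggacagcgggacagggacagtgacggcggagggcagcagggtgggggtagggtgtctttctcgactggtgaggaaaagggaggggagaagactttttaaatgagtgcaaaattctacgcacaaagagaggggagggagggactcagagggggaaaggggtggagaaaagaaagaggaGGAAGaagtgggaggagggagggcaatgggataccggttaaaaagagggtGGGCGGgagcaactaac
In Gja4 the ETS letters begin 112, the SOX letters 86 and the SP letters 79 bases before the start, and in Gja5 the ETS letters begin 67 and the SP letters 17 bases before it. Among 32817 promoters of the same length, 64.1% hold the ETS letters, 27.7% the SOX letters, 32.7% the SP letters and 21.6% the RBPJ letters. The RBPJ letters are in neither window, which says nothing of the factor itself. In GENCODE M21 on GRCm38 the Gja4 gene (ENSMUSG00000050234) spans chr4:127311421-127314039 and Gja5 (ENSMUSG00000057123) chr3:96904693-97077416. Bases just after the RefSeq start were found in a GENCODE transcript of the gene for Gja4, but not for Gja5. The RefSeq start of Gja5 used here lies inside its GENCODE span. The span overlaps 4 genes on the opposite strand, and whether strand was used in counting is not given in the sources used here. Gja1 (ENSMUSG00000050953, chr10:56377330-56402513) and Gjc1 (ENSMUSG00000034520, chr11:102799579-102819700) overlap no other gene.

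Gja5 was the most arterial of the 4 genes. In arterial cells it stood at 26.3 CPM at P1 (172 UMIs, interval 22.5 to 30.5) and 76.1 CPM at P7 (828 UMIs, 71.0 to 81.5). The P7 level was 2.89 times that of P1 (log2 ratio 1.53, interval 1.30 to 1.78). Endocardial cells, which line the heart chambers, came second with 10.96 CPM at P1 (55 UMIs, 8.26 to 14.3) and 65.2 CPM at P7 (114 UMIs, 53.8 to 78.3), a log2 ratio of 2.57 (2.10 to 3.06). The arterial and endocardial intervals, which treat UMIs as independent, were apart at P1 and overlapped at P7. The 10 cells with most Gja5 held 76.4% of the endocardial UMIs at P1 and 99.1% at P7, and 59.9% and 25.0% of the arterial ones. No other class of at least 20 cells passed 9.09 CPM at either age. That level was reached by lymphatic cells at P7, with 0 UMIs at P1 and 13 at P7. With a floor of 3 counts put in for the 0, lymphatic Gja5 was 4.10-fold higher at P7. The counting interval of its log2 ratio began at 1.53. Single-gate lymphatic cells held 0 at both ages. Of all Gja5 UMIs, 85.3% at P1 and 96.9% at P7 lay in Cdh5 cells. The P7 endocardial level rested on 11 of 119 cells, with up to 32 UMIs in 1 cell, and 14.8% of P1 and 21.8% of P7 endocardial cells also passed the arterial gate. Without those cells, a version chosen after seeing the data, endocardial Gja5 was 2.87 CPM (12 UMIs in 306 cells) at P1 and 3.85 CPM (5 UMIs in 93 cells) at P7, with a log2 ratio of 0.50 (-1.43 to 2.03) that did not part the ages. In single-gate endocardial cells, which may still pass the arterial gate, the log2 ratio was 2.17 (1.61 to 2.76), from 47 UMIs in 273 cells and 61 in 78. Without cells carrying a UMI of the lung genes Foxf1, Hoxa5 or Tbx4 the log2 ratio was 1.60 in arterial and 3.14 in endocardial cells.

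Few cells carried this Gja5 signal. Among arterial cells 46 of 475 (9.68%) at P1 and 174 of 1000 (17.4%) at P7 had at least 1 Gja5 UMI, with a median depth of 11795 and 8552 UMIs per cell. After each cell was thinned to 2000 UMIs the shares were 4.77% and 10.1%. In macrophages 2.30% and 0% of cells had one, at median depths of 13645 and 13658 UMIs, and 0 of 124 cells at P7 allows a share of up to 2.42%, which is 3 cells of 124. At P7 the 25 arterial cells with 10 or more UMIs, 2.5% of the class, held 47.1% of its Gja5 UMIs. Capillary cells had Gja5 in 0.933% at P1 and 1.01% at P7, shares within the range of macrophages and lymphocytes (0% to 2.30%), but 111 of the 119 capillary Gja5 UMIs at P7 lay in cells that also passed the arterial gate. Pericytes had Gja5 in 0.797% and 2.07% of cells, from 13 and 73 UMIs, of which single-gate pericytes held 2 and 2.

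Gja4 had a wider reach. Arterial cells held 336 CPM at P1 (2201 UMIs, interval 322 to 350) and 484 CPM at P7 (5271 UMIs, 471 to 498), a log2 ratio of 0.53 (0.46 to 0.60). Lymphatic cells held 446 CPM at P1 and 300 CPM at P7 (log2 ratio -0.57, -0.76 to -0.39), the reverse of the arterial direction. Endocardial cells held 250 CPM at P1 and 293 CPM at P7, a log2 ratio of 0.23 (0.078 to 0.38). Without the cells that also passed the arterial gate the endocardial direction turned, with 228 CPM at P1, 170.4 CPM at P7 and a ratio of -0.42 (-0.64 to -0.21). At P1 the order was lymphatic, arterial, then smooth muscle (254 CPM) and endocardial cells, whose intervals overlapped. At P7 arterial cells led, clear of smooth muscle (332 CPM), while smooth muscle and lymphatic cells overlapped, and so did lymphatic and endocardial cells. The lymphatic gate shares 38.3% of its P1 cells with the endocardial gate and 40.2% of its P7 cells with the capillary gate. Only 15 and 16 of its cells passed a single gate, where Gja4 was 764 and 300 CPM. Those levels came from 115 UMIs in 8 cells at P1, with up to 83 in 1 cell, and 60 UMIs in 6 cells at P7, with up to 30. In the whole lymphatic gate (94 and 97 cells) the 10 cells with most Gja4 held 59.6% and 62.9% of its UMIs.

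Gja4 levels differed among arterial cells themselves. Of arterial cells 48.4% at P1 and 49.7% at P7 had a Gja4 UMI (29.3% and 35.7% after thinning), against 2.30% and 3.23% of macrophages (0 of 82 and 0 of 123 after thinning, which allow up to 3.66% and 2.44% by the same limit of 3 cells). Counts in positive cells ran from 1 to 124 UMIs at P1 with a median of 5, and from 1 to 69 at P7 with a median of 6. The 77 and 177 cells with 10 or more UMIs held 78.6% and 78.4% of the arterial Gja4 UMIs.

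**Figure D1:**
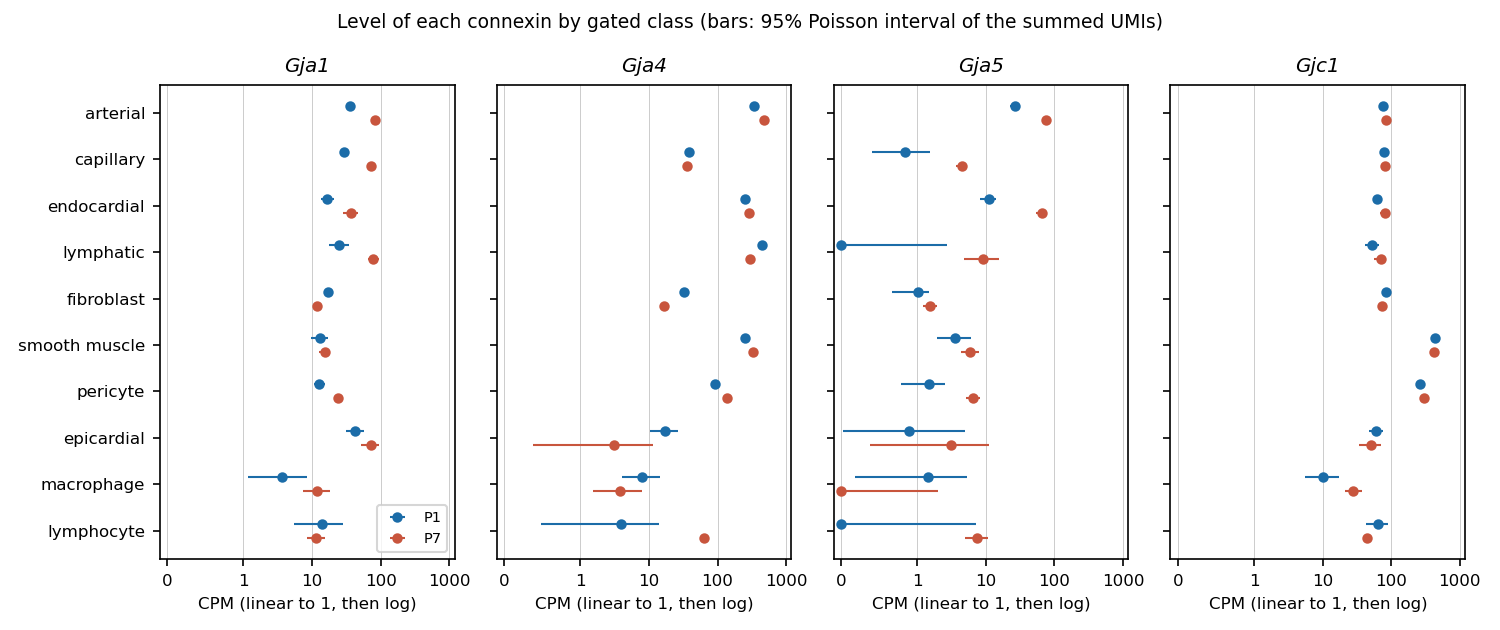
Level of each connexin in CPM (horizontal axis, linear to 1 and logarithmic above) in 10 gated classes at P1 (blue) and P7 (red), with 95% Poisson intervals of the summed UMIs. Gja5 stands highest in arterial cells, Gja4 in lymphatic cells at P1 and arterial cells at P7, Gjc1 in smooth muscle cells and pericytes, and Gja1 has no class above 100 CPM.

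The arterial gate holds cells with and without the capillary marker Aplnr, a receptor of the apelin peptide, and the 4 connexins were followed across this range. Gja4 was lower at each step at both ages. At P7 it was 924 CPM in the 512 arterial cells without Aplnr, 118 CPM in the 488 arterial cells with it and 12.4 CPM in the 2185 capillary cells without Sema3g or Hey1. At P1 the corresponding levels were 535, 83.5 and 23.9 CPM in 274, 201 and 764 cells. The ends of the range differed 74.2-fold at P7 (log2 6.21, interval 6.03 to 6.40) and 22.4-fold at P1 (4.48, 4.28 to 4.70). At the arterial end the P7 level was higher than that of P1 (log2 0.79, 0.71 to 0.87). At the capillary end it was lower (-0.94, -1.21 to -0.67), but only -0.044 (-0.39 to 0.32) without the deepest 6% of cells and -0.56 (-0.86 to -0.26) without cells carrying a UMI of Foxf1, Hoxa5 or Tbx4. Without those lung-gene cells the ends differed by 4.89 at P1 and 6.15 at P7 on the log2 scale. Over the whole capillary gate the log2 ratio of the ages was -0.089 (-0.25 to 0.076), and 0.41 (0.22 to 0.61) without the lung-gene cells.

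Gja5 followed the same range with an even steeper step. It was 45.3 CPM at P1 and 145 CPM at P7 in arterial cells without Aplnr, and 2.08 CPM (6 UMIs) and 18.7 CPM (111 UMIs) in those with it. Capillary cells without Sema3g or Hey1 held 4 Gja5 UMIs at P1 and 8 at P7, or 0.440 and 0.387 CPM, so the log2 differences of 6.52 (5.30 to 8.58) and 8.46 (7.56 to 9.77) rest on those few counts. Over genes with at least 20 UMIs in the pair of classes, 8.48% at P1 and 11.9% at P7 were past 2-fold higher at the arterial end, and 2 of the 4 members were so at each age. The other members were near level across the range. Gja1 differed by 0.41 (0.092 to 0.72) at P1 and -0.20 (-0.39 to -0.0083) at P7, and Gjc1 by -0.11 (-0.31 to 0.095) and 0.10 (-0.056 to 0.25), all on the log2 scale. The sign of the Gja1 difference at P7 turned in single-gate cells (0.11), after thinning (0.20), as a mean of per-cell CPM (0.055) and with 2 UMIs of each gating gene (0.0089).

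**Figure D2:**
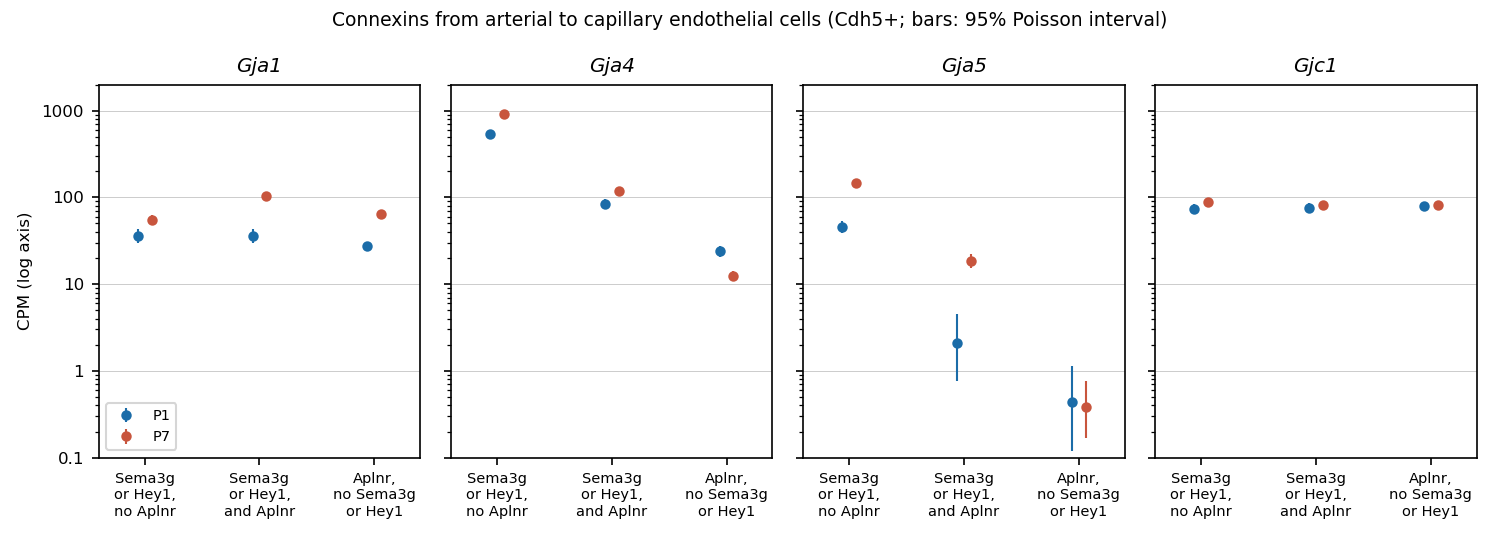
CPM (logarithmic axis) of each connexin in Cdh5 cells with Sema3g or Hey1 and no Aplnr, with both, and with Aplnr alone, at P1 (blue) and P7 (red), with 95% Poisson intervals. Gja4 and Gja5 descend from left to right, from 924 to 12.4 CPM and from 145 to 0.387 CPM at P7, while Gja1 at P7 is highest in the middle group at 105 CPM and Gjc1 stays between 74.2 and 87.7 CPM.

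Gja4 and Gja5 were seen in the same arterial cells. At P1 all 46 arterial cells with Gja5 also had Gja4, 184 had Gja4 alone and 245 had neither. At P7 168 cells had both, 329 had Gja4 alone, 6 had Gja5 alone and 497 had neither. Both genes were thus found together in 16.8% of P7 arterial cells (14.5% to 19.3%), where independent detection would give 8.65%. After thinning, 17 of the 22 Gja5 cells at P1 and 89 of the 98 at P7 had Gja4 as well. Detection of any gene rises with a cell's depth, and thinned cells have equal depth. Among the arterial cells without Aplnr the P7 share with both genes was 29.3% (25.4% to 33.4%), against 21.9% if independent, and at P1 it was 15.0% against 9.23%. Among those with Aplnr it was 3.69% at P7, against 1.01%.

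**Figure D3:**
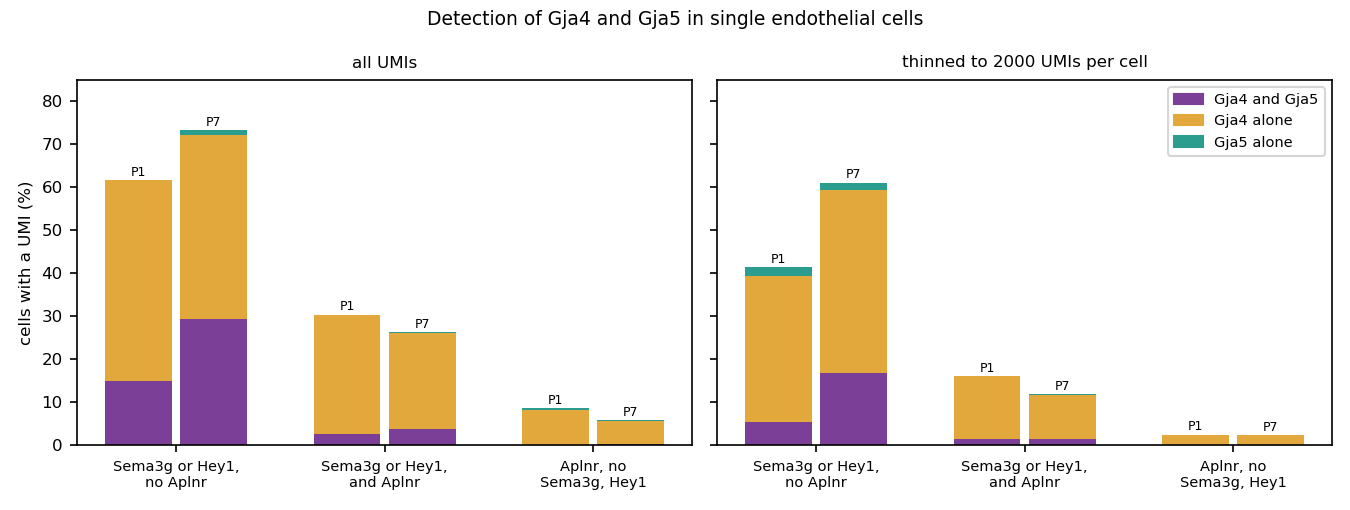
Share of cells (%) with a UMI of both Gja4 and Gja5 (purple), Gja4 alone (yellow) or Gja5 alone (green) in the same 3 groups of endothelial cells at P1 and P7, with all UMIs (left) and after thinning to 2000 UMIs per cell (right). With all UMIs, Gja5 rarely occurs without Gja4 in the groups with Sema3g or Hey1. In the group with Aplnr alone, 4 of 4 Gja5 cells at P1 and 5 of 8 at P7 lack Gja4. The share with both is largest in P7 arterial cells without Aplnr, at 29.3% with all UMIs.

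Gja1 was higher at P7 in each of the 4 endothelial classes. It went from 36.02 CPM (236 UMIs, 31.6 to 40.9) to 82.4 CPM (897 UMIs, 77.1 to 88.0) in arterial cells, a log2 ratio of 1.19 (0.99 to 1.41), and from 29.3 to 72.8 CPM in capillary cells, a ratio of 1.31 (1.15 to 1.48). Endocardial cells went from 16.7 to 37.2 CPM (1.15, 0.66 to 1.64), and lymphatic cells from 25.1 to 78.3 CPM (1.63, 1.07 to 2.24). At P7 arterial, lymphatic and epicardial cells (71.8 CPM) overlapped in their intervals, as did lymphatic, epicardial and capillary cells. In single-gate cells the ratio was 0.63 (-0.13 to 1.32) in endocardial and 0.21 (-0.64 to 1.11) in lymphatic cells (133 CPM from 20 UMIs in 15 cells, and 155 CPM from 31 UMIs in 16), so that the counting intervals did not part the ages there. Gja1 UMIs were found in 27.6% of arterial cells at P1 and 41.3% at P7 (7.59% and 16.7% after thinning). Macrophages had them in 5.75% and 10.5% of cells (0 of 82 and 3 of 123 after thinning). The share of all Gja1 UMIs lying in Cdh5 cells went from 54.3% to 83.1%, while these cells held 40.4% and 40.0% of all UMIs.

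Unlike Gja4 and Gja5, Gja1 at P7 was not highest in the arterial cells without Aplnr. At P7 arterial cells with Aplnr held 105 CPM (96.9 to 114), those without it 55.4 CPM (49.0 to 62.4) and capillary cells without Sema3g or Hey1 63.5 CPM (60.1 to 67.0). At P1 the corresponding levels were 36.02 CPM (29.4 to 43.6), 36.03 CPM (30.1 to 42.7) and 27.1 CPM (23.9 to 30.8). The groups with and without Aplnr were thus apart at P7 and overlapped at P1.

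In the Pdgfra gate Gja1 was lower at P7, at 17.4 CPM (446 UMIs) and 11.9 CPM (580 UMIs), a log2 ratio of -0.55 (-0.73 to -0.37), and in single-gate Pdgfra cells at 17.8 and 9.16 CPM (-0.96, -1.18 to -0.73). The share of Gja1 UMIs in Pdgfra cells without vascular markers went from 25.2% to 10.8%. Epicardial cells held 42.8 CPM at P1 (48 UMIs) and 71.8 CPM at P7 (46 UMIs), with a log2 ratio of 0.75 (0.13 to 1.36), or 0.39 (-0.30 to 1.09) without lung-gene cells. In 76 and 43 epicardial cells, 35.5% and 46.5% had a Gja1 UMI. The mural cells depended on the gate. Over the whole smooth muscle and pericyte gates Gja1 was 13.0 and 15.4 CPM, and 12.8 and 23.9 CPM, but in single-gate cells it was 10.8 and 3.54 CPM (16 and 12 UMIs) and 8.62 and 2.21 CPM (18 and 7 UMIs). The log2 ratio in pericytes was thus 0.89 (0.58 to 1.23) in the whole gate and -1.90 (-3.46 to -0.64) in single-gate cells. Of single-gate smooth muscle cells 7.19% at P1 and 2.35% at P7 had a Gja1 UMI, and of single-gate pericytes 4.07% and 1.95%, beside 5.41% and 7.45% of single-gate macrophages. The pericyte shares and the P7 smooth muscle share lie below those of macrophages. Single-gate macrophages were deeper, with medians of 13671 and 12395 UMIs against 8522 and 7868 in pericytes. Those macrophages held 3.50 CPM at P1 and 8.13 CPM at P7. Single-gate lymphocytes had Gja1 in 0 of 38 cells at P1 and in 0.687% at P7 (1.08 CPM). Whether the low mural counts are background was not tested.

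Muscle cells, the best known site of Gja1, were nearly absent from the cells kept. Barcodes removed by the limits on genes and mitochondrial UMIs were not gated here. They held the heart muscle gene Myh6 at 1640 CPM at P1 and 548 CPM at P7, of non-mitochondrial UMIs. The cells kept held it at 57.2 and 14.8 CPM, so the gate cannot show what the sort held. A gate on Ryr2, Actn2 and Ttn found 17 cells at P1 and 6 at P7, with 18 and 4 Gja1 UMIs. Their Gja1 level was 77.0 CPM at P1 (45.6 to 122) and 43.9 CPM at P7 (12.0 to 112), and the intervals overlapped.

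**Figure D4:**
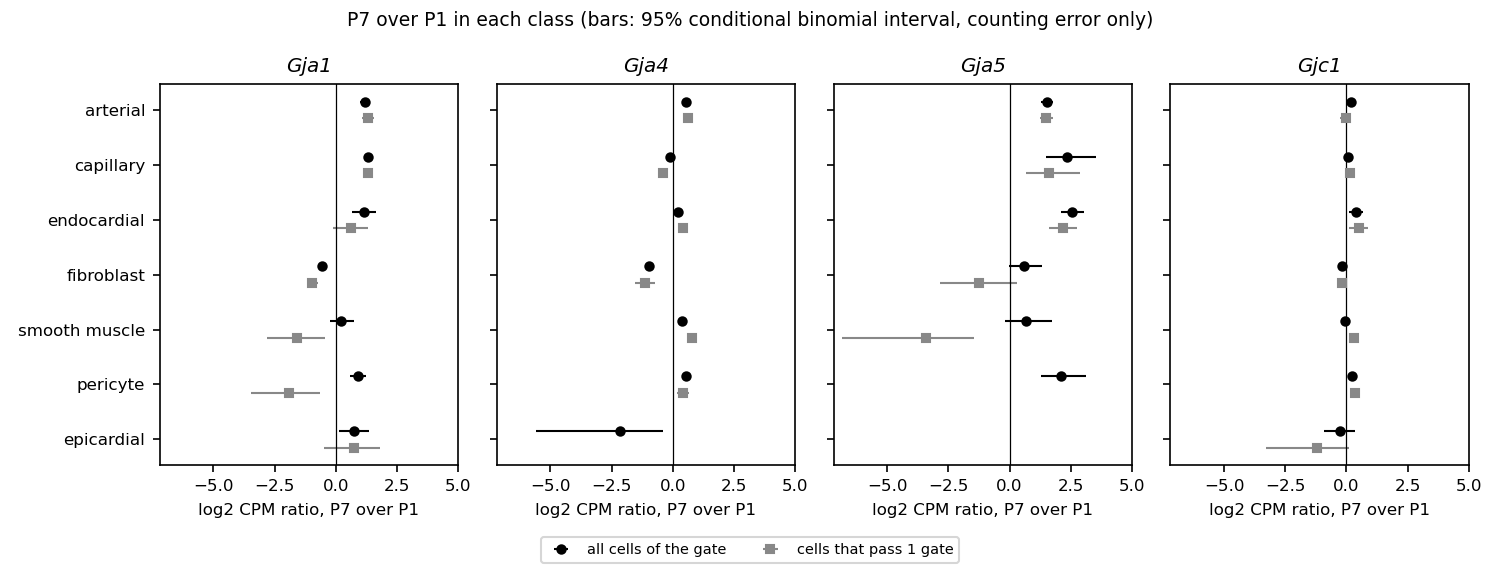
Log2 CPM ratio of P7 over P1 for each connexin in 7 classes, over all cells of a gate (black circles) and over cells that pass 1 gate (grey squares), with 95% conditional binomial intervals. Ratios with at most 3 UMIs at both ages, or with 0 at one age, are not drawn. Gja1 lies right of 0 in the 3 endothelial classes and left of 0 in fibroblasts, and its smooth muscle and pericyte ratios change sign between the versions of the gate.

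Gjc1 stood highest in the mural cells, smooth muscle and pericytes. Smooth muscle cells held 435 CPM at P1 (1573 UMIs, 414 to 457) and 413 CPM at P7 (3303 UMIs, 399 to 427), a log2 ratio of -0.076 (-0.16 to 0.012) that does not part the ages. Pericytes held 260 CPM (249 to 271) and 302 CPM (292 to 313), a ratio of 0.22 (0.14 to 0.29). In single-gate cells the classes were alike, with 437 and 438 CPM at P1 and 540 and 554 CPM at P7, and the ratios were 0.30 (0.17 to 0.44) and 0.34 (0.22 to 0.45). The other 6 classes of vessel, stroma and epicardium followed between 53.2 and 82.8 CPM at P1, and none passed 84.4 CPM at P7. Among them Pdgfra, capillary and arterial cells overlapped at P1, as did endocardial, epicardial and lymphatic cells.

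Gjc1 was also broad. It was detected in 74.5% and 82.9% of smooth muscle cells, in 49.1% and 43.2% of arterial cells and in 61.5% and 62.7% of Pdgfra cells, against 3.45% and 12.1% of macrophages. After thinning these shares were 47.1% and 52.1%, 16.5% and 14.1%, 13.8% and 12.4%, and 1.22% and 4.07%. The lymphocyte gate had Gjc1 in 25.0% and 18.0% of cells (7.55% and 4.58% after thinning), at 63.0 and 45.0 CPM. At P1 that level lies between those of lymphatic (53.2 CPM) and Pdgfra cells (82.8 CPM). Single-gate lymphocytes held 46.8 CPM at P1 (12 UMIs) and 12.4 CPM at P7 (23 UMIs). Mural cells without Cdh5 held 41.6% of all Gjc1 UMIs at P1 and 42.9% at P7, and Cdh5 cells 28.9% and 30.5%. Its log2 ratio was 0.053 (-0.057 to 0.17) in capillary, 0.18 (0.017 to 0.34) in arterial, 0.38 (0.086 to 0.67) in endocardial and -0.17 (-0.25 to -0.092) in Pdgfra cells. After thinning the arterial ratio turned to -0.16 and the endocardial one to -0.35, and the arterial ratio turned under 4 of its 14 alternatives. None of these ratios reached the 2-fold of Gja1 and Gja5 in endothelium.

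Gja4 joined Gjc1 in the mural cells. Smooth muscle cells held Gja4 at 254 CPM at P1 (919 UMIs) and 332 CPM at P7 (2653 UMIs), a log2 ratio of 0.38 (0.27 to 0.49), and pericytes at 93.0 and 137 CPM (0.55, 0.43 to 0.68). In single-gate cells the levels were 288 and 495 CPM in smooth muscle (0.78, 0.63 to 0.94) and 114 and 154 CPM in pericytes (0.42, 0.20 to 0.65). Of single-gate smooth muscle cells 47.5% at P1 and 81.2% at P7 had a Gja4 UMI, and 29.8% and 57.3% after thinning. Mural cells without Cdh5 held 20.2% and 28.6% of all Gja4 UMIs. Of the Gja4 cells in the smooth muscle gate, 94.3% and 94.6% also had Gjc1, a gene found in 74.5% and 82.9% of the gate. After thinning these were 62.9% and 65.9%, against 47.1% and 52.1%.

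In Pdgfra and epicardial cells Gja4 was low, and lower still in single-gate cells. The Pdgfra gate held 32.1 and 16.5 CPM (log2 ratio -0.95, -1.10 to -0.81), but single-gate cells 6.13 and 2.79 CPM. The epicardial gate held 19 UMIs at P1 and 2 at P7 (-2.16, -5.59 to -0.39), and single-gate epicardial cells 0 in 45 and 0 in 11. In the P7 lymphocyte gate 27 of 423 cells held 248 Gja4 UMIs (64.5 CPM), and the single-gate lymphocytes 3 UMIs (1.62 CPM). With a UMI of the leukocyte gene Ptprc also required, a version chosen after seeing the data, lymphocytes held 7.36 CPM.

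The members were set beside all genes with at least 20 summed UMIs in each class, using a change past 2-fold, since 1 library per age allows no test. In arterial cells 2 of the 4 members (Gja1 and Gja5) were past 2-fold higher at P7 and 0 at P1, against 5.64% and 2.99% of 12562 genes. In capillary cells 2 members, again Gja1 and Gja5, and 0 were so, against 6.43% and 3.25%, with 111 of the 119 capillary Gja5 UMIs at P7 in cells that also pass the arterial gate. In endocardial cells the same 2 and 0 were so, against 5.87% and 3.74%, with Gja5 at 0.50 on the log2 scale without arterial-gate cells. In Pdgfra cells it was 0 and 0, against 4.24% and 7.45%, and in smooth muscle 0 and 0, against 3.51% and 5.43%. In pericytes 1 member, Gja5 with 13 and 73 UMIs (2 and 2 in single-gate cells), was past 2-fold higher at P7 and 0 at P1, against 3.86% and 3.83%. In epicardial cells 0 and 1, the Gja4 counts of 19 and 2, were so, against 4.16% and 5.33%. The median log2 ratio of all genes lay between -0.042 and 0.10 in these classes, and was 0.10 in capillary and 0.089 in arterial cells.

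Genes of arterial identity and flow response give the setting of Gja4 and Gja5. Of 21 such genes, 2 were past 2-fold higher at P7 in arterial cells and 0 at P1, against 5.64% and 2.99% of all genes, with a median log2 ratio of 0.34 against 0.089. For so short a list, 2 of 21 is near the share of all genes. The largest differences were those of Jag1, a Notch ligand (1.29, 1.08 to 1.505), of Cxcr4, a chemokine receptor (1.18, 0.90 to 1.48), and of Notch4, a Notch receptor of endothelium (0.86, 0.66 to 1.07). In the other direction, and named after their values were seen, were Eng (-0.40), Acvrl1 (-0.26) and Klf4 (-0.12), with intervals below 0. Sox17 was at 0.096 and Efnb2 at 0.16. Summed immediate early genes of dissociation were 3029 CPM at P1 and 3083 CPM at P7 in arterial cells, 1875 and 2479 CPM in endocardial cells, 7532 and 6339 CPM in smooth muscle and 5402 and 4061 CPM in pericytes. Their part in the connexin levels was not tested.

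Partners of gap junctions at cell contacts that were past 2-fold were all higher at P1. Of 12 such genes 3 were past 2-fold higher at P1 in Pdgfra cells and 0 at P7, against 7.45% and 4.24% of all genes: Pkp2, a desmosomal plaque gene (log2 ratio -3.06), Dsp, the desmosomal plakin desmoplakin (-1.50), and Ank3, which encodes ankyrin-G (-1.50). Pkp2 rested on 63 and 14 UMIs (2.45 and 0.287 CPM), and these lists were counted over whole gates only. The heart muscle gene Myh6 was also higher at P1 over all cells kept, at 57.2 and 14.8 CPM of non-mitochondrial UMIs. The part of muscle RNA in the levels of this list was not tested. In the other direction, and named after their values were seen, were Dbn1 (0.70), which encodes the actin-binding drebrin, Des (0.63), the intermediate filament of muscle, and Jup (0.57), the plakoglobin gene. In pericytes Dsp (-1.99) and Pkp2 (-1.89, from 33 and 11 UMIs) were past 2-fold, against 3.83% of all genes, and Ank3 was at -0.99. Higher at P7 there were, among others, Cav1, the caveolae gene (0.74), and Des (0.64), also named after their values were seen. Of these pericytes 44.0% at P1 and 26.5% at P7 also passed the Pdgfra gate, so the pericyte and Pdgfra results share cells. In smooth muscle Dsp alone passed (-2.38) of 11 measured, against 5.43%, with Cdh2, the N-cadherin gene, at -0.86 and Des at 0.85. In epicardial cells Cav1 passed (-1.44) of 11 measured, against 5.33%, and Tjp1, a scaffold that binds connexins, was at -0.98. Cdh2 was at -0.92 from 21 and 6 UMIs, with an interval of -2.60 to 0.36 that did not part the ages. Dbn1, also named after its value was seen, went the other way (0.84, 0.41 to 1.26). The 5 lung genes summed to 112 CPM at P1 and 26.5 CPM at P7 in the epicardial gate. The part of cells with lung genes in these epicardial ratios was not tested. In smooth muscle and epicardium 1 of 11 is near the share of all genes. The medians of these lists were -0.0016, 0.16, 0.072 and -0.13 in Pdgfra cells, pericytes, smooth muscle and epicardium.

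Of 8 conduction genes, counted over all cells, 5 were past 2-fold higher at P1 and 0 at P7, against 8.88% and 4.07% of 16552 genes, with a median log2 ratio of -1.67 against -0.0041. The largest differences were those of the cardiac transcription factors Nkx2-5 (-2.52), Irx3 (-2.11) and Tbx5 (-1.99). The cells of the conduction system themselves were not gated, and a lower level cannot be told apart from fewer cells.

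Across 22 points (11 classes in each of 2 libraries), the genes whose log2 profile was most like each member were ranked by Pearson's r among 4222 genes. Classes share cells and libraries, so r is a description. The 11 classes include the muscle gate, with only 17 and 6 cells. The genes most like Gja5 were Vegfc (0.72), a growth factor of lymphatic vessels, Dll4 (0.72), a Notch ligand of arterial endothelium, Stmn2 (0.71), which regulates microtubules, Dhh (0.70), a hedgehog ligand, and Abcb1a (0.70), a drug efflux pump. Most like Gja4 were Utrn (0.85), the utrophin gene, the tetraspanin Tspan17 (0.84), Tm4sf1 (0.82), a membrane protein of endothelium, Efnb2 (0.82), the arterial ephrin ligand, and Dock6 (0.82), a guanine nucleotide exchange factor. Gjc1 was best matched by Lgalsl (0.93), a galectin-like gene, Syne1 (0.92), which links nucleus and cytoskeleton, Adcy6 (0.91), an adenylyl cyclase, Ednra (0.91), the endothelin receptor of smooth muscle, and the nuclear receptor Nr2f1 (0.91). Gja1 was matched by Unc45b (0.82), a myosin chaperone of muscle, Lmo7 (0.78), a protein of cell junctions, Myo18a (0.75), an unconventional myosin, Arhgef5 (0.73), also an exchange factor, and 4930402H24Rik (0.72). Within a single library 2 to 5 of each member's 5 genes were among its 50 best. For Gja1, Arhgef5 ranked 461 and 4930402H24Rik 303 within P1 alone. Among the members themselves Gja4 and Gja5 were most alike (0.57), then Gja1 and Gja5 (0.44) and Gja4 and Gjc1 (0.43).

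The rest of the family was sparse. Of 19 other connexin and pannexin genes listed, 4 had 0 UMIs over all cells, 12 had 1 to 99 and 3 had at least 100. Panx1, which forms channels that release ATP, was the most counted (3084 UMIs), with 28.5 CPM at P1 and 24.4 CPM at P7 in Pdgfra cells and 17.7 and 27.0 CPM in the lymphocyte gate. Gjb5, a connexin of epithelia, had 111 of its 122 P1 UMIs in 26 of 76 epicardial cells (99.0 CPM, 81.5 to 119) and 18 of its 46 P7 UMIs in 10 of 43 (28.1 CPM, 16.7 to 44.4). Gjb5 was counted over the whole Upk3b gate only, where the 5 lung genes summed to 112 CPM at P1 and 26.5 CPM at P7. The part of cells with lung genes in its level was not tested. Gjc3, a glial connexin singled out after its values were seen, had 37 of 39 P1 UMIs in 13 glial cells and 55 of 57 at P7 in 23, or 186 and 165 CPM.

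**Figure D5:**
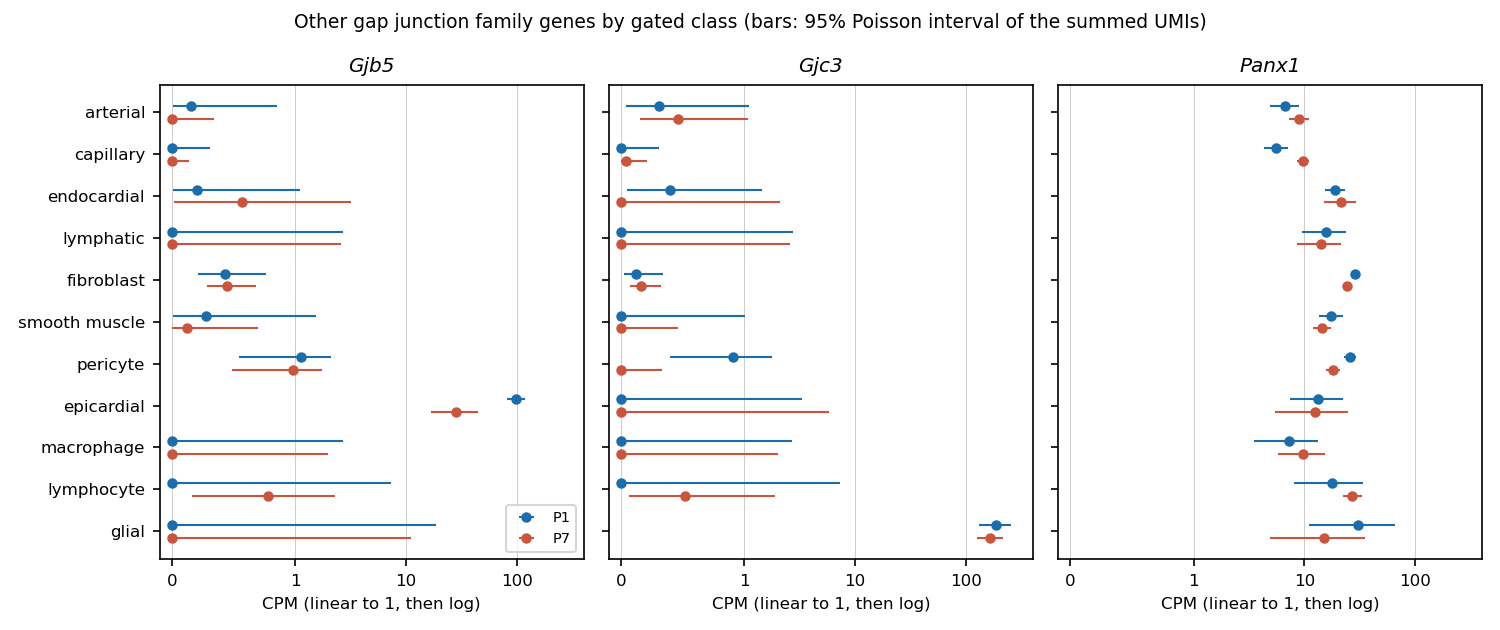
CPM (horizontal axis, linear to 1 and logarithmic above) of Gjb5, Gjc3 and Panx1 in 11 gated classes at P1 (blue) and P7 (red), with 95% Poisson intervals. Gjb5 stands out in epicardial cells (99.0 and 28.1 CPM) and Gjc3 in glial cells (186 and 165 CPM), while Panx1 is spread over all classes.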

How the data were processed

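Hearts of P1 and P7 mice (1 library per age) were profiled by 10x single cell RNA-seq. The authors aligned the reads to mm10 (GRCm38) with Cell Ranger 3.1.0, per the submitters' processing notes, and deposited raw UMI counts per gene and barcode, without normalisation and before the filters on genes and mitochondrial UMIs. Barcodes with 200 to 8000 genes were kept, as in the study's methods, with at most 20% mitochondrial UMIs, a limit chosen here because the methods give no value. Counts were summed per class and library and scaled to CPM, counts relative to the class total. Ratios carry 0.5 counts added to each sum, with an exact conditional binomial interval. Levels have exact Poisson and shares Clopper-Pearson intervals (95%), and a share of 0 has the limit of 3 cells over those counted. UMIs limit counting error only, and the intervals treat UMIs as independent even where few cells hold many of them. Nothing measures the spread between hearts. Changes past 2-fold were counted among genes with at least 20 summed UMIs. Likeness used log2(CPM + 10) of genes with at least 100 UMIs and a range of at least 2.

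The genes named are the 4 members, other connexins and pannexins with at least 100 UMIs, the 3 largest log2 ratios of each list, the 5 genes most like each member, and gating and sex genes. One gene that this rule names is not reported here. The members and lists were chosen with earlier results of these data known. In simulated counts with 200 changed genes, the interval held the true ratio for 94.0% of them in arterial cells (10908 genes) and 94.5% in fibroblasts (13361 genes). The simulated sums were Poisson draws, the model that the interval assumes. They check the calculation only, and cannot show how the interval does where few cells hold many of the UMIs. The alternatives were other cell limits, gates, scalings and weightings, and thinning. Python 3.11.15, numpy 2.4.6, scipy 1.17.1, pandas 2.3.3 and matplotlib 3.10.9 were used, with GENCODE M21 positions.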

Additional observations from a re-analysis of the deposited data

Results flagged for a closer look

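In each of 3 connexins, the P7 over P1 ratio had an interval above 0 in one class and below 0 in another. The share of all genes that do so was not counted, so the number of connexins is not read as a result. For Gja1 the log2 ratio was 1.63 in lymphatic cells, but 0.21 (-0.64 to 1.11) in single-gate lymphatic cells, and -0.55 in Pdgfra cells. For Gja4 it was 0.55 in pericytes and -2.16 in epicardial cells, the latter from 19 and 2 UMIs that were absent from single-gate cells. For Gjc1 it was 0.38 in endocardial cells, turning to -0.35 after thinning, and -0.17 in Pdgfra cells. The difference between the classes was not tested in any of these, since each ratio rests on 1 library per age.

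Barcodes removed by the limits on genes and mitochondrial UMIs (2845 at P1 and 566 at P7) also held connexin counts, given here as CPM of non-mitochondrial UMIs. Gja1 was at 74.9 CPM in the removed P1 barcodes and 32.6 CPM in those of P7, against 21.4 and 32.2 CPM in the cells kept. Gja4 was at 68.1 and 65.2 CPM, Gja5 at 6.73 and 14.7 CPM (8 and 9 UMIs), and Gjc1 at 144 and 157 CPM. The heart muscle myosin Myh6 was at 1640 and 548 CPM in the removed barcodes and at 57.2 and 14.8 CPM in the cells kept, and its part in the Gja1 level of the removed barcodes was not tested.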

How the results depend on the processing

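Each library is 1 pool of hearts, so depth limits precision only within a library, and the lymphatic, epicardial and muscle gates rest on under 100 cells per age. No paired analysis was possible because each age has 1 library and the labels carry no replicate numbers, and leaving out a replicate was not possible either. The ratios of Gja1, Gja4 and Gja5 between ages in arterial cells, and of Gja4 and Gja5 between arterial and capillary cells, kept their direction under all 14 alternatives. Alternatives change which cells or counts enter, and the cause of the changes below was not tested.

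Between ages in arterial cells, the Gja4 log2 ratio was 0.38 with 2 UMIs of each gating gene required, 0.63 in single-gate cells, 0.62 without the deepest 6% of cells, 0.45 without cells with lung genes, 0.45 with median-of-ratios size factors, 1.10 with Sema3g as the gate and 0.36 with Hey1. That of Gja1 was 0.94 with 2 UMIs, 1.44 as a mean of per-cell CPM and 0.96 with Sema3g, and that of Gja5 was 2.21 with Sema3g and 1.30 with Hey1. Gjc1 in arterial cells turned to -0.034 in single-gate cells, -0.16 after thinning, -0.082 as a per-cell mean and -0.054 with Sema3g, and in smooth muscle it turned to 0.30 in single-gate cells, 0.031 without the deepest cells, 0.11 after thinning and 0.047 as a per-cell mean. Outside these, Gja5 in pericytes turned to -3.28 with 2 UMIs (11 and 1 UMIs), Gja1 in pericytes to -1.90 in single-gate cells, and after thinning Gja1 in epicardial cells turned to -0.75 (7 and 2 UMIs) and Gjc1 in endocardial cells to -0.35. Gja4 in endocardial cells turned to -0.42 without arterial-gate cells, where Gja5 was 0.50, a version chosen after seeing the data. Gja5 in smooth muscle (0.67, -0.20 to 1.72) was -3.40 (-6.87 to -1.46) in single-gate cells, and Gja5 in Pdgfra cells (0.60, -0.040 to 1.32) was -2.31 after thinning, each with the other sign in 3 of 12 alternatives.

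Arterial over capillary, Gja4 at P1 was 5.13 with 2 UMIs, 5.27 in single-gate cells, 5.52 without the deepest cells, 5.25 after thinning, 4.89 without lung genes, 4.97 as a per-cell mean and 4.91 with Sema3g, and at P7 6.84 with 2 UMIs and 7.12 in single-gate cells. Gja1 at P1 was 0.90 after thinning. At P7 Gja1 turned to 0.0089 with 2 UMIs, 0.11 in single-gate cells, 0.20 after thinning and 0.055 as a per-cell mean, and was -0.79 with Sema3g, so its order between these cells at P7 depends on the setting. Gjc1 at P1 was 0.15 after thinning, and at P7 -0.28 with 2 UMIs, -0.52 in single-gate cells, -0.071 as a per-cell mean and -0.36 with Sema3g.

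Shares of arterial cells with Gja4, Gja5 and both were 71.0%, 18.9% and 18.9% at P1 with 2 UMIs, and 71.0%, 30.6% and 30.4% at P7. With Sema3g they were 55.9%, 15.4% and 15.4% at P1 and 77.3%, 43.8% and 42.6% at P7, and with Hey1 the Gja4 share was 53.5% at P1. After thinning they were 29.3%, 4.77% and 3.69% at P1 and 35.7%, 10.1% and 9.18% at P7. In arterial cells 9.59% and 10.8% of genes were past 2-fold higher at P7 and at P1 with at least 1 summed UMI, and 3.99% and 1.78% with at least 50.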

Other observations

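The cells outside all gates also carried connexins. In the 1383 cells at P1 and 1358 at P7 that passed no gate, Gjc1 was at 64.9 and 65.3 CPM, Gja1 at 18.8 and 30.3 CPM (log2 ratio 0.68, 0.41 to 0.97), Gja4 at 20.0 and 26.2 CPM, and Gja5 at 1.79 and 4.31 CPM from 17 and 38 UMIs. In the glial gate (13 and 23 cells), Gja1 had 3 and 6 UMIs, Gja4 had 0 at both ages, Gja5 had 0 and 2, and Gjc1 had 20 and 31 UMIs, or 101 and 93.1 CPM.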
